A study of Mus musculus with 3 samples.

Results

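Binding of RXRα and RARα in mouse liver was examined at 10 genes of triglyceride and lipid droplet metabolism, chosen by name out of 22367 genes annotated as protein-coding in GENCODE M1, in which all 10 were found. They comprise 5 genes of triglyceride synthesis (Gpam, Lpin1, Lpin2, Dgat1 and Dgat2), 2 genes of lipid droplet coat proteins (Plin2 and Plin5) and 3 genes of lipolysis (Pnpla2, Abhd5 and Mgll). Chromatin came from the livers of male C57BL/6 mice, wild type by genotype and 3 months old, for which the sample labels name no treatment. There were 3 libraries, namely chromatin precipitated with an anti-RXRα antibody, the input for it, and chromatin precipitated with an anti-RARα antibody (Santa Cruz). Each was a single library, so no difference given here was tested, and the values describe these libraries without any estimate of the variation between mice. In whole liver, fewer cells with a bound receptor and less binding per cell cannot be told apart.

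Triglyceride is made in the endoplasmic reticulum by stepwise addition of fatty acids to glycerol-3-phosphate, is stored in lipid droplets coated by perilipins, and is taken apart again by lipases that remove the fatty acids one by one. RXRα is a nuclear receptor that binds DNA as a dimer, either with itself or with a partner such as RARα, PPARα, LXR or FXR, several of which are sensors of lipids. Such dimers recognize pairs of the half-site AGGTCA, and the spacing and orientation of the copies differ between the partners.

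The RXRα and input data were coverage in bins of 32 bp, and their totals corresponded to 9999939 and 9999292 reads, respectively. These totals are nearly equal and lower than the RXRα depth stated by the study, so read counts and counting intervals refer to the deposited tracks and not to the whole sequencing run. The RARα data were a list of 143280 peaks, each with a score and without read counts. A RARα peak was retained when its score was greater than 20, which left 32946. An RXRα region was a stretch of bins in which RXRα was at least 20 times the input, where the input was never taken as lower than its genome mean of 0.603 reads per bin. The highest such quotient in a window is called the RXRα ratio below. The window of a gene ran 10 kb to either side of the gene start and over the gene body, and positions are in bp from the gene start in the direction of transcription, negative upstream. A RARα peak was co-localized when it overlapped an RXRα region by at least 25% of the narrower interval. As a check on the tissue, 8 of 8 hepatocyte marker genes had a co-localized peak, against 27.2% of all protein-coding genes. The counts were 2 of 8 adipocyte, near that share, 0 of 4 hepatic stellate cell and 0 of 3 Kupffer cell marker genes. The latter lists are too short to be told from that share. An RXRα region was at 8 of 8, 6 of 8, 2 of 4 and 0 of 3 of these genes, respectively, against 47.9% of all genes. Hepatocyte and adipocyte genes thus differed less in RXRα regions than in co-localization. Plin1 and Cidea, a pair of those adipocyte markers, are also lipid droplet genes. Binding at a gene does not measure its expression.

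All 10 genes were bound by both receptors. Each had at least 1 retained RARα peak (57.9% of all protein-coding genes had), at least 1 RXRα region (47.9% had) and at least 1 place where the receptors co-localized (27.2% had). When the window was limited to 10 kb around the gene start, all 10 genes again had a RARα peak (52.2% of all genes) and an RXRα region (39.8% of all genes). Co-localization within 10 kb was seen for 7 of 10, against 23.5% of all genes, and the exceptions were Dgat2, Lpin2 and Mgll, whose shared sites lay deeper in the gene.

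The 10 windows held 79 RXRα regions and 145 retained RARα peaks, of which 32 were co-localized. Lpin1 alone contributed 100 of those peaks. Without it, 26 of 45 peaks (57.8%) were co-localized. Of all retained RARα peaks in the genome 32.2% were, but other genes with such runs of peaks were not left out there. Cps1, for example, had 187 retained peaks, of which 2 were co-localized. With Lpin1 kept, 32 of 145 is a lower share than 32.2%, so the direction of this comparison depends on leaving it out. The genes had a median of 7.5 RXRα regions in a median window of 39.5 kb, whereas the 10723 genes with any region had a median of 2 in a window of 34.5 kb. Per 10 kb of window there were 1.59 regions for the 10 genes and 0.433 for all genes with a region. The median RXRα ratio was 97.0 over the 10 genes, 48.0 over all genes with a region and 19.9 over all protein-coding genes. The median of the highest RARα score was 100.5 over the 10 genes, 47 over genes with an RXRα region and 28 over all genes. Over the 8 hepatocyte marker genes the median RARα score was higher, 151.5, and the median RXRα ratio was 68.9.

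**Figure D1:**
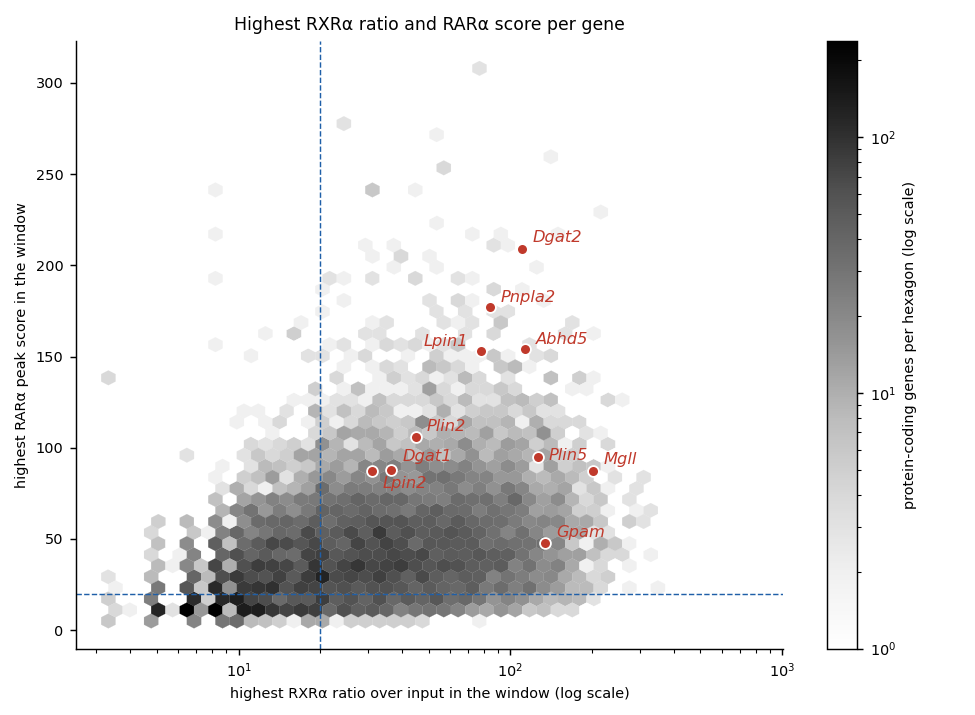
The highest RXRα ratio over input (x axis, log scale) is plotted against the highest RARα peak score (y axis) in the window of each gene, for the 10 named genes (red points) and all protein-coding genes with any RARα peak (grey hexagons, darker for more genes). Dashed lines mark the thresholds of 20 on both axes; all 10 genes lie above both, with Dgat2 highest in RARα score (209), Mgll highest in RXRα ratio (200.8), Gpam lowest in score (48) and Lpin2 lowest in ratio (31.0). With the other inputs tried, Plin5 was above Mgll and Dgat1 was lowest in ratio.

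The strongest signals of the receptors lay in different places in most of the genes. The strongest RARα peak was within 200 bp of the gene start in 9 of 10 genes, against 41.3% of all genes with a retained peak. In the remaining gene, Lpin2, it was 11 bp from the start of a second, internal protein-coding transcript, so that all 10 strongest RARα peaks were within 200 bp of a protein-coding transcript start, against 47.4% of all genes with a retained peak. The highest RXRα ratio was within 1 kb of the gene start in 3 of 10 genes (Dgat1, Lpin1 and Plin2), against a similar 23% of all genes whose highest ratio reached 20. With the other inputs tried, it was within 1 kb of the start at Plin5 and not at Plin2. Of the 79 RXRα regions, 8 were within 1 kb, 31 between 1 and 10 kb and 40 farther than 10 kb from the start, and 55 were intronic. A retained RARα peak overlapped 33 regions, only a RARα peak of score 20 or lower overlapped 21, and none overlapped 25. The median RXRα ratios of these sets were 36.0, 36.5 and 33.2, and their ranges of 21.6 to 121, 23.2 to 200.8 and 21.6 to 143 overlapped widely. Of the 79 regions, 14 were closer to the start of another gene than to that of the gene in whose window they lay.

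**Figure D2:**
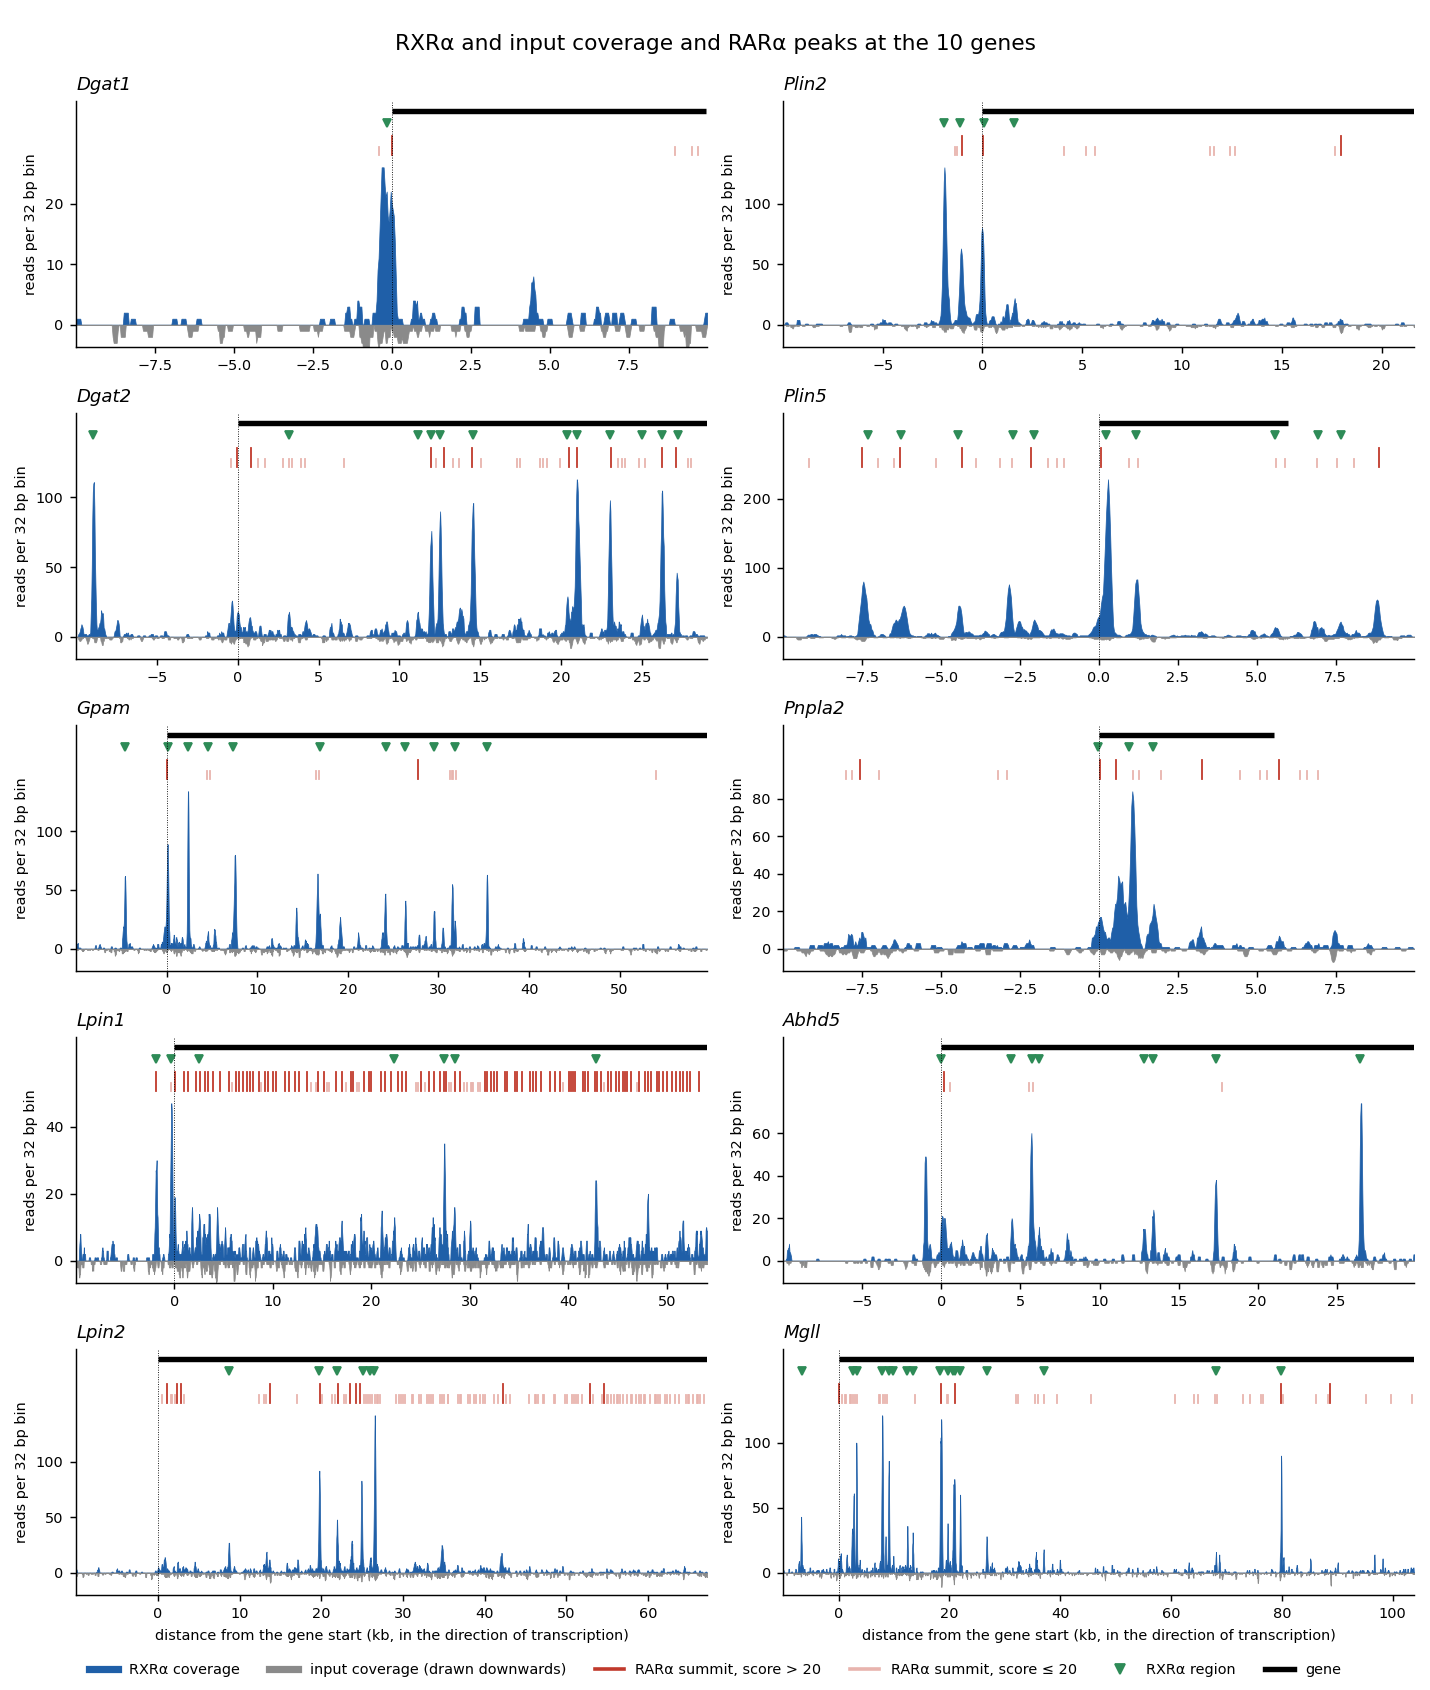
Coverage per 32 bp bin is shown across the window of each gene for RXRα (blue, upwards) and input (grey, downwards), with the distance from the gene start in kb on the x axis and a separate y axis for each gene. Red ticks mark RARα summits (dark for a score greater than 20), green triangles mark RXRα regions and black bars mark genes. RARα summits of high score stand at the gene starts, whereas the tallest RXRα peaks of Dgat2, Gpam, Lpin2, Abhd5 and Mgll lie away from them and Lpin1 is covered with RARα summits from end to end.

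Triglyceride synthesis begins with Gpam, the mitochondrial glycerol-3-phosphate acyltransferase that attaches the initial fatty acid. Gpam (chromosome 19, 55142142 to 55201824, minus strand, mm9) had 11 RXRα regions and 2 retained RARα peaks, the fewest RARα peaks per RXRα region apart from Abhd5. Its highest RXRα ratio, 134 (134 RXRα reads against 1 input read in the bin, 95% Poisson interval of the RXRα count 112 to 159), was in an intron at +2383, where no RARα peak of any score was listed. A second strong region at the gene start itself, with a ratio of 113, was shared with RARα, although the RARα score there was 48, the lowest maximum of the 10 genes. The mean RXRα coverage over this RARα peak was 27.2 times the input, the highest value at any retained RARα peak of the 10 genes. The other RARα peak of Gpam, with a score of 26, lay 114 bp upstream of the start of an internal protein-coding transcript at +27883, outside any RXRα region.

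The lipins are phosphatidate phosphatases that supply the diacylglycerol for triglyceride synthesis, and they also act as nuclear co-regulators. Lpin1 (chromosome 12, 16542475 to 16596576, minus strand) and Lpin2 (chromosome 17, 71531900 to 71599157, plus strand) had the longest stretches under RARα peaks of the 10 genes. RARα peaks of any score covered 99.7% of Lpin1, or 53.9 kb, which ranked 1 among the 9718 genes of at least 20 kb, and 57.8% of Lpin2, or 38.9 kb. As a share of the gene, Lpin2 did not stand apart, with 60.9% at the much shorter Pnpla2 and 48.1% at Dgat2. Over all genes the median was 1.86%, and over the 8 hepatocyte marker genes the cover ran from 24.3% to 100% with a median of 97.2%. Of the 100 retained peaks of Lpin1, 91 were intronic, and 4 had a score greater than 50.

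RXRα was uneven over the same stretch. The RXRα coverage over the 100 Lpin1 peaks had a median of 2.62 times input, ranged from 0.184 to 16.9, and was below input at 15 of them. The strongest RARα peak of Lpin1, with a score of 153 at +21, was not co-localized and had an RXRα enrichment of 2.38. The 6 co-localized peaks had scores of 23 to 45 and lay at -1859 and at 5 sites from +2561 to +42701. RARα peaks of any score covered 99.7% of the gene, so an RXRα region inside it would overlap one almost anywhere. The 5 regions inside the gene had ratios of 21.6 to 28.0, near the threshold of 20. The strongest RXRα region of Lpin1 was just upstream of the start, at -337, with a ratio of 78.0 (47 RXRα reads, 0 input reads, interval of the RXRα count 34.5 to 62.5), and the RARα peak overlapping it had a score of 14, under the threshold.

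**Figure D3:**
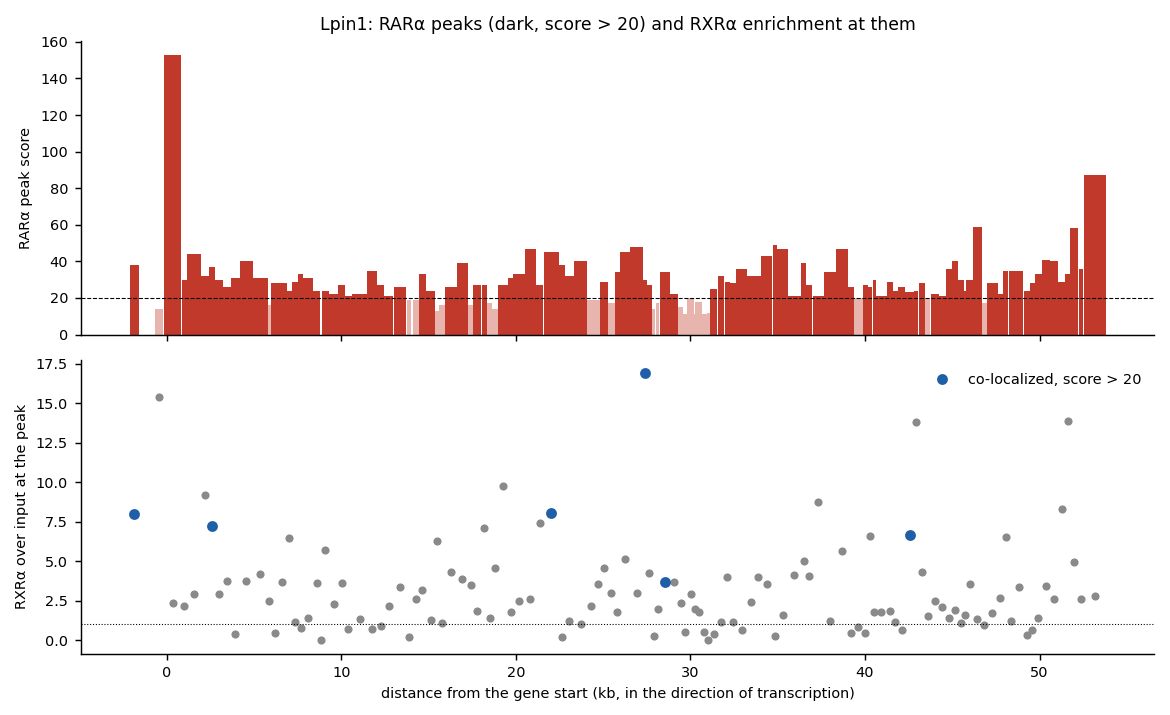
The upper panel shows each RARα peak over Lpin1 as a bar as wide as the peak, with the peak score on the y axis (dark for a score greater than 20, dashed line at 20), and the lower panel shows the RXRα coverage over input at the same peaks, against the distance from the gene start in kb. Peaks follow one another over the gene, with 153 at the start as the highest score, whereas RXRα enrichment varies from peak to peak between 0.184 and 16.9 over the 100 retained peaks, and the 6 co-localized ones are drawn in blue.

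The strongest Lpin1 region was the only one of the 79 regions with copies of AGGTCA spaced by 5 bases, a spacing used by RAR-RXR dimers, at no more than 2 mismatches in the 12 half-site bases, and it had 1 mismatch. With windows centred on the highest RXRα coverage, an alternative added after the data were seen, 3 of the 79 regions had such a pair. It is on the minus strand at 16596843 to 16596859. An exact pair spaced by 2 bases, found at 0.0831% of all RXRα regions, was at another Lpin1 region at +28463, which was co-localized with a RARα peak of score 34. That region was near the threshold, with a ratio of 23.2 from 14 RXRα reads and 0 input reads. The windows printed here reach 100 bp to either side of the highest bin of the region, on the plus strand of mm9, with the pair in capitals, and show how the copies are placed. The same layout is used below.
Lpin1 at -337, chr12:16596813-16597013: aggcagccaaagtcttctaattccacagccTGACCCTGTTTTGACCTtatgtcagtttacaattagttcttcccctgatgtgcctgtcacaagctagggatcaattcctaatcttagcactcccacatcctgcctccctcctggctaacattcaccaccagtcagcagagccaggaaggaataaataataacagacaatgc
Lpin1 at +28463, chr12:16568013-16568213: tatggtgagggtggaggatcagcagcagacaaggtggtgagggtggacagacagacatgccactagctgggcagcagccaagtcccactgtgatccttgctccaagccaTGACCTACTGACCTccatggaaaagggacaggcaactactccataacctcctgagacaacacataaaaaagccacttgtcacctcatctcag

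Lpin2 had the lowest RXRα ratio of the 10 genes, 31.0 (31 RXRα reads, 1 input read, interval 21.1 to 44.0) at +19637, but this place rested on the input of single bins. Against the mean input alone its highest ratio was 236 and against input averaged over 1 kb it was 50.8, and Dgat1 was then lowest with 43.1 and 12.2. Its highest raw coverage was much larger, 142 reads at +26549, but 6 input reads in that bin brought the ratio there to 23.7. No retained RARα peak and no RXRα region lay within 1 kb of the annotated gene start, where the highest RARα score was 10. The annotated start belongs to a transcript that is not protein-coding. RARα peaks were instead found at the protein-coding transcripts, with a score of 44 at 79 bp past the start of 1 transcript and the maximum of 87 at 11 bp past the start of another, at 71553994. The latter peak was co-localized and had an RXRα enrichment of 5.41. A peak of similar strength, with a score of 83 at +24770, was also co-localized, and the remaining co-localized peak had a score of 45 at +19845.

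Dgat1 and Dgat2 are the unrelated acyltransferases that catalyze the final step, in which diacylglycerol becomes triglyceride, and they differed in the number of bound sites. Dgat1 (chromosome 15, 76332445 to 76342381, minus strand) had 1 RXRα region and 1 retained RARα peak, and they coincided at the gene start. The RARα score was 88 at -4, and the RXRα ratio was 36.5 at -36, from 22 RXRα reads and 0 input reads (interval 13.8 to 33.3). When the input was instead averaged over 1 kb, the highest ratio of Dgat1 fell to 12.2 and the gene had no RXRα region.

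Dgat2 (chromosome 7, 106302173 to 106331223, minus strand) had 12 RXRα regions, 10 retained RARα peaks and 8 co-localized peaks, the most of the 10 genes. The RARα peak at its start, at -12, had the highest score of the 10 genes, 209, which ranked 74 among all protein-coding genes. That peak was not co-localized, and RXRα over it was 4.25 times input. All 8 co-localized peaks were instead in introns between +11978 and +27118, with scores of 22 to 44 and RXRα enrichments of 4.43 to 24.5. The highest RXRα ratio, 110.0 (110 RXRα reads, 1 input read, interval 90.4 to 133), was at -8922 with no RARα peak. With the input of single bins, the maxima of RARα and RXRα were thus 8910 bp apart at Dgat2, and 32 bp apart at Dgat1. Against the mean input alone, the highest ratio of Dgat2 was 187.5 at +20966, from 113 RXRα reads and 4 input reads. That place was next to the co-localized RARα summit of score 35 at +20973. At Dgat1 the highest ratios with the other inputs tried were reached at -260, so both distances depended on the input used. Of the 12 Dgat2 regions, 5 were closer to the start of the neighbour Uvrag than to that of Dgat2.

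Among the lipid droplet coats, Plin2, the perilipin found on droplets of most cells, was bound at its start and at sites upstream. Plin2 (chromosome 4, 86294290 to 86315964, minus strand) had 4 RXRα regions, 3 retained RARα peaks and 2 co-localized peaks. The RARα maximum, 106 at +49, coincided with its highest RXRα ratio, 45 at +75 (45 RXRα reads, 1 input read, interval 32.8 to 60.2). The other shared site, with a RARα score of 41 at -1051, had an RXRα enrichment of 9.41. The highest RXRα coverage of the gene was farther upstream, 130 reads against 6 input reads at -1909, in a region with a ratio of 28.0 and no RARα peak. Against the mean input alone and against input averaged over 1 kb, the highest ratios of Plin2, 216 and 54.0, were there. The coincidence of the maxima at the start thus held with the input of single bins only. This upstream region held AGGTCA copies spaced by 1 base (DR1), the spacing used by PPAR-RXR dimers and RXR homodimers, on the minus strand at 86317895 to 86317907 with 2 mismatches.
Plin2 at -2005, chr4:86317869-86318069: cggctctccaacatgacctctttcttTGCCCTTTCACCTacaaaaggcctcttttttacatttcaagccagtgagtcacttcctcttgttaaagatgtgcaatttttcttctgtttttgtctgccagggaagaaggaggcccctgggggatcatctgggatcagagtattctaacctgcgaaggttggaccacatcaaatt

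Plin5, the perilipin of oxidative tissues that links droplets to mitochondria, had the densest RXRα signal. Plin5 (chromosome 17, 56251024 to 56257019, minus strand) had 10 RXRα regions, 6 retained RARα peaks and 5 co-localized peaks in a window of 20 kb. RXRα gave 1249 reads in this window against 176 from input, a ratio of 7.10 (95% exact interval 6.06 to 8.36) that ranked 26 among all protein-coding genes. Within 1 kb of the start the mean RXRα coverage was 19.9 times input, and 228 RXRα reads were stacked in the bin at +298, where the input had 3. The start also carried the strongest RARα peak, with a score of 95 at +79 and an RXRα enrichment of 25.5.

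Plin5 has close neighbours, and only 3 of its 10 regions were nearest to its own start, while 3 were nearest to that of Plin4, another perilipin, and 4 to that of Lrg1. Its highest RXRα ratio, 126 at -2838 (76 RXRα reads, 0 input reads, interval 59.9 to 95.1), was among those nearest to Lrg1, and the RARα score there was 16. This place rested on the input of single bins. Against the mean input alone and against input averaged over 1 kb, the highest ratios of Plin5, 378 and 104, were at +298, next to its own start. A pair spaced by 1 base with 1 mismatch, on the plus strand at 56263214 to 56263226, was in the region at -6134, which had a ratio of 69.7 and was co-localized with a RARα peak of score 22. Pairs of that spacing with 2 mismatches were in the region at the Plin5 start and in the region at -2038.
Plin5 at -6134, chr17:56263053-56263253: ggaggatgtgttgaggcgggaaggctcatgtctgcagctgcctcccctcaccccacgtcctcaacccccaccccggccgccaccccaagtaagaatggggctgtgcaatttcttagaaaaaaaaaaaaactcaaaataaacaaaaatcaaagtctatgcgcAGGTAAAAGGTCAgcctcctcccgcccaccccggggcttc

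Lipolysis starts with Pnpla2, adipose triglyceride lipase, which removes the initial fatty acid. Pnpla2 (chromosome 7, 148641097 to 148646642, plus strand) had 3 RXRα regions, 5 retained RARα peaks and 2 co-localized peaks. The RARα maximum of 177, at +48, ranked 152 among all protein-coding genes, belonged to a co-localized peak, and had an RXRα enrichment of 5.27. The highest RXRα ratio, 84.0 (84 RXRα reads, 1 input read, interval 67.0 to 104), was 1016 bp farther into the gene, in an intron at +1064. A RARα peak with a score of 42 and its summit at +548 overlapped this region and had an RXRα enrichment of 9.96. The RXRα region at the gene start was near the threshold, with a ratio of 24.9 from 15 RXRα reads and 0 input reads. With input averaged over 1 kb, Pnpla2 had no co-localized peak. Of the 5 RARα peaks, 3 were nearest to the starts of the neighbours Rplp2 and Efcab4a.

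The Pnpla2 region at +1064 was the only strongest region of the 10 genes that held a DR1, with 2 mismatches on the minus strand at 148642245 to 148642257. It also held copies spaced by 4 bases with 1 mismatch, a spacing used by LXR-RXR dimers, on the plus strand at 148642179 to 148642194, and an overlapping pair spaced by 2 bases with 2 mismatches at 148642189 to 148642202.
Pnpla2 at +1064, chr7:148642061-148642261: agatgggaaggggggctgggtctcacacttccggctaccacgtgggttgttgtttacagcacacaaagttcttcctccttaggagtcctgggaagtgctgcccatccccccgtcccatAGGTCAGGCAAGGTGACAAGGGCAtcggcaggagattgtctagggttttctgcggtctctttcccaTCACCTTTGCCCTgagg

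Abhd5, also called CGI-58, is the co-activator of Pnpla2. Abhd5 (chromosome 9, 122260726 to 122290642, plus strand) had 8 RXRα regions but 1 retained RARα peak. That peak, with a score of 154 at +159, was co-localized with a region at the gene start and had an RXRα enrichment of 13. The region at the start had a ratio of 29.9 from 18 RXRα reads and 0 input reads, so co-localization at Abhd5 was lost at 30 times input. The other 7 regions were intronic, and the strongest, with a ratio of 113 at +26491 (68 RXRα reads, 0 input reads, interval 52.8 to 86.2), had no RARα peak of any score. Another, with a ratio of 99.6 at +5691, overlapped a RARα peak of score 14. RARα and RXRα maxima were 26332 bp apart, the widest separation among the 10 genes.

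Mgll, monoacylglycerol lipase, releases the last fatty acid. Mgll (chromosome 6, 88674406 to 88778354, plus strand) is the longest of the 10 genes and had the most RXRα regions, 17, with 5 retained RARα peaks and 3 co-localized ones. Its highest RXRα ratio, 200.8 at +7851 (121 RXRα reads, 0 input reads, interval 100.4 to 145), was the highest of the 10 genes and ranked 163 among all protein-coding genes. Plin5 was higher than Mgll against the mean input alone, with 378 and 200.8, and against input averaged over 1 kb, with 104 and 90.04. The RARα peak that overlapped this region had a score of exactly 20, and so did not count as retained. An adjacent region at +9035 had a ratio of 143 and no RARα peak.

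At the start of Mgll the RARα score was 87 at +109, but no RXRα region lay within 1 kb, and RXRα over that peak was 3.21 times input. The 3 co-localized peaks were intronic, with scores of 52 at +18429, 24 at +20969 and 26 at +79859, and RXRα enrichments of 13.7, 12.1 and 23.4. The region at +9035 held a DR1 17 bp from its highest bin, on the minus strand at 88683418 to 88683430 with 2 mismatches. The region at +79947, which was co-localized, also held one with 2 mismatches.
Mgll at +9035, chr6:88683341-88683541: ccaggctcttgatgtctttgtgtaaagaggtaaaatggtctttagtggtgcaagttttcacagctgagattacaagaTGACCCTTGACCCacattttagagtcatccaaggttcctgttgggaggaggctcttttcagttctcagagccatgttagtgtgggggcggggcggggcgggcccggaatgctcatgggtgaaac

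Total RXRα reads over the window need no threshold. RXRα exceeded input in all 10 windows, and the ratio of RXRα to input reads had a median of 3.05, against 1.03 over all protein-coding genes and 2.55 over 35 other genes of triglyceride and droplet metabolism. Plin5 was highest at 7.10, and its interval overlapped that of none of the other 9. Within 10 kb of the gene start, which is the whole window of Plin5, Mgll came close to it with 6.89, and Gpam had 4.89. Dgat2 at 4.40 (3.95 to 4.91) and Mgll at 3.805 (3.48 to 4.16) came next, with overlapping intervals, and that of Mgll also overlapped those of Pnpla2 and Plin2. Pnpla2 at 3.20, Plin2 at 3.09, Gpam at 3.02, Abhd5 at 2.79 and Lpin1 at 2.74 could not be ordered, since their intervals overlapped. Lpin2 at 1.92 (1.76 to 2.11) and Dgat1 at 1.49 (1.14 to 1.96) were lowest, again with overlapping intervals. These intervals cover counting error only. The order differed near the start: within 1 kb, the mean RXRα coverage over input was 19.9 at Plin5, 12.7 at Gpam and 6.91 at Pnpla2, and 2.43 at Mgll and 2.15 at Lpin2.

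**Figure D4:**
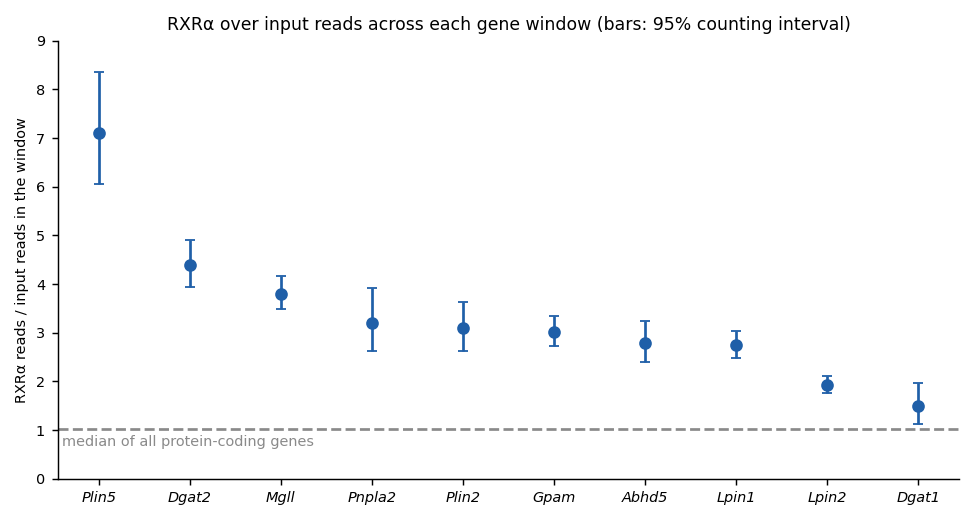
RXRα reads divided by input reads over each gene window (y axis, linear from 0) are shown for the 10 genes in descending order. Bars are 95% exact intervals for counting error and the dashed line is the median of all protein-coding genes (1.03); Plin5 (7.10) stands above the others and all 10 intervals lie above the line.

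Within 100 bp of the highest bin of each RXRα region, a pair of AGGTCA copies spaced by 1 base, with at most 2 mismatches in 12 bases on either strand, was found at 12 of the 79 regions (15.2%), against 12% of all 42117 RXRα regions. In windows 1000 bp away the shares were 2.53% and 3.17%. Within 50 bp of the highest bin, 3 of the 79 regions had such a pair, a lower share than the 7.04% of all regions. The 12 were spread over 7 genes, with 3 each at Plin5 and Mgll, 2 at Pnpla2 and 1 each at Gpam, Lpin2, Plin2 and Abhd5, and none was found at Dgat1, Dgat2 and Lpin1. At the strongest region of each gene the count was 1 of 10, which is close to the share of all regions. Pairs spaced by 2 bases were at 7.59% of the regions (6.20% of all regions), by 4 bases at 5.06% (6.37%) and by 5 bases at 1.27% (5.28%), and inverted copies spaced by 1 base were at 2.53% (4.50%). Pairs of different spacing can overlap, as at Pnpla2. A match is a description of the letters, and not evidence that a receptor bound there.

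The 35 other genes of the pathway were bound less uniformly. A retained RARα peak was present at 31 (88.6%), an RXRα region at 28 (80%) and a co-localized peak at 19 (54.3%), while the median RXRα ratio was 74.0 and the median highest RARα score was 37. The same shares over all protein-coding genes were 57.9%, 47.9% and 27.2%. Among all protein-coding genes with any RXRα region, which 28 of the 35 had, 84.4% had a RARα peak and 56.6% a co-localized one. The highest RXRα ratios were at acyltransferases, with 192.5 at Agpat6, which acts on glycerol-3-phosphate as Gpam does, and 186 at Agpat2 and 181 at Agpat3, which act on the next intermediate. The lowest ratios were 8.999 at Gpat2, 11.6 at Agpat4 and 13.3 at Aadac. The highest RARα scores were 179 at Angptl4, an inhibitor of lipoprotein lipase, 161 at Acsl3, a fatty acyl-CoA synthetase of lipid droplets, and 134 at Agpat6. Cidea, a droplet protein of brown fat, had no RARα peak, and the scores at Tm6sf2 and Agpat4 were 15. Plin4, whose window overlaps that of Plin5, had 7 RXRα regions, a ratio of 91.3 and a RARα score of 95. Both maxima were Plin5 sites counted again, with the ratio in a Plin5 intron at +1130 from the Plin5 start and the score at +79 from it.

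All 10 genes had an RXRα region at each threshold tried from 5 to 30 times input, where the share of all genes went from 90.5% to 36.2%, so that the count at the low end was near the background. At 40 times input 8 had one, against 27.8% of all genes. Co-localization was found at all 10 genes up to 25 times input (22.1% of all genes) and at 6 at 40 times input (13.5%). With a RARα score greater than 50 in place of 20, 9 genes had a RARα peak, all but Gpam, and 7 had a co-localized one, against 27.2% and 11.9% of all genes. When the overlap was measured as 25% of the RARα peak, which is usually wider than the RXRα region, 8 genes were co-localized, without Plin2 and Abhd5, against 14.3% of all genes.

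**Figure D5:**
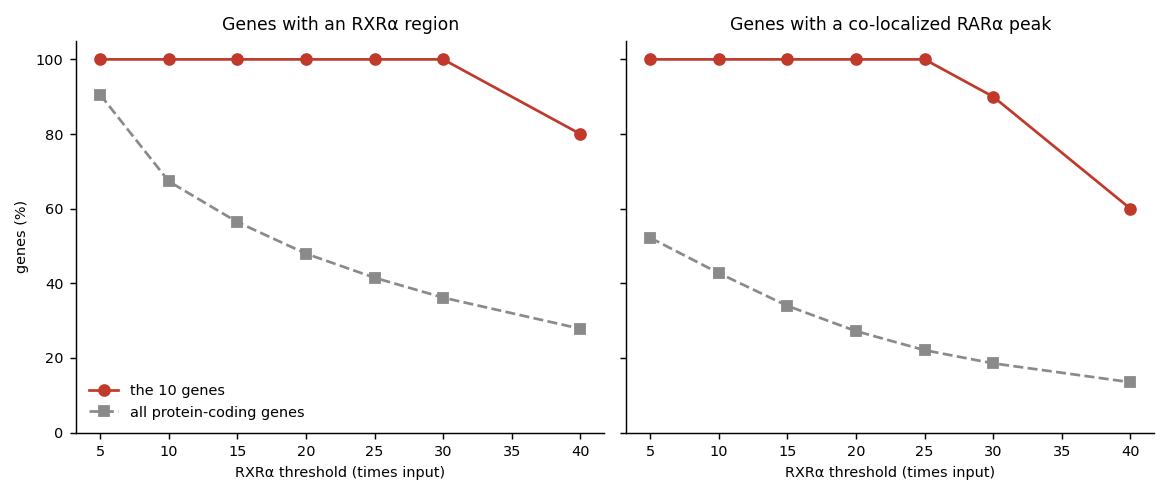
The share of genes (y axis, %) with an RXRα region (left) and with a co-localized RARα peak (right) is plotted against the RXRα threshold in multiples of input (x axis), for the 10 genes (red circles) and all protein-coding genes (grey squares). At 20 times input the shares are 100% of the 10 genes in both panels and 47.9% and 27.2% of all genes; at 40 times input 8 and 6 of the 10 genes remain.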

How the data were processed

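Bowtie and MACS (and CASAVA 1.4) are named in the submitters' processing notes. For RXRα and input the authors deposited signal as whole-number coverage in 32 bp bins, each read covering 5 bins, which gave the read totals. For RARα the authors deposited a peak list with a score, whose relation to fold over input is not stated in it, and a false discovery rate in percent, below 5% throughout and not used as a filter. Files are in mm9, so sequence and genes came from NCBI37 and GENCODE M1, although the study's methods name a later build for alignment. The values of the score, 10 kb, 20-fold and 25% thresholds come from the study's methods. Adding the gene body to the window, applying the 20-fold to single bins and taking 25% of the narrower interval were choices made here. Further, RXRα was scaled to the mean of the input (factor 0.99994), and neighbouring bins at most 200 bp apart formed 1 region. RXRα enrichment at a RARα peak is mean RXRα over mean input, with input at least 0.603 per bin. Motifs were searched on both strands, 100 bp to either side of the highest bin. Window ratios have exact Clopper-Pearson and bin counts exact Poisson intervals. No p-values were computed, with 1 library per antibody. Members, gene lists and settings were chosen with earlier results of these data known. Named were all 10 members, and of the 35 other pathway genes (Hilpda matched as 2310016C08Rik) the 3 highest and lowest in either measure and window neighbours. The steps were tested on simulated data. Alternatives were other thresholds, windows, inputs, scalings, overlaps and motif settings. Python 3.11.15, numpy 2.4.6, pandas 2.3.3, scipy 1.17.1 and matplotlib 3.10.9 were used.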

Additional observations from a re-analysis of the deposited data

How the results depend on the processing

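No paired analysis was possible because each antibody had 1 library and no result came from a test. The order of the RXRα ratios changed with the input used. Of the values recomputed under alternatives, 56 summary values and 77 single-gene values were labelled unchanged, and 10 and 23 moved. Unchanged meant a count within 1.5 times the reported one, a ratio within the counting interval or an identical RARα score. This rule is loose for counts, since 7 genes in place of 10, as for co-localization within 10 kb of the start, passed as unchanged. With a RARα score greater than 100, 5 genes had a RARα peak and 3 a co-localized one (5.18% and 2.58% of all genes). Co-localized genes numbered 6 at 40 times input (13.5%) and 6 within 1 kb of the gene start (15.8%). The ratio of RXRα to input reads pooled over the 10 windows was 3.21, and 3.79 within 10 kb of the start only. The median RXRα ratio of 97.0 became 194.1 against the mean input alone and 52.4 against input averaged over 1 kb. With the averaged input 9 genes had an RXRα region (not Dgat1) and 8 a co-localized peak (not Dgat1 and Pnpla2), against 43.1% and 21.3% of all genes. The DR1 count at strongest regions of 1 became 0 with at most 1 mismatch, 3 with at most 3 mismatches and 0 within 50 bp of the highest bin. After the data were seen, windows centred on the highest RXRα coverage (1 of 10) and a RARα score of 20 or more (10 genes for either count) were added. The RARα list holds no read counts, so a missing peak cannot be read as absence of binding.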
